A study of Mus musculus with 10 samples.

Results

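The genes described here encode 52 nucleolar, rRNA processing and RNA polymerase I factors, a list given by name and found in the deposited count matrix, which holds 52636 Ensembl genes, through the GRCm38 annotation. All 52 were found, and 51 were abundant enough to test. The list groups into 8 genes of small nucleolar ribonucleoprotein particles (snoRNPs), 6 nucleolar GTPases and phosphoproteins, 5 RNA polymerase I factors, 18 factors of the small ribosomal subunit and 15 of the large one. They were measured by bulk RNA sequencing of nonclassical monocytes, the patrolling monocyte subset, sorted from mouse bone marrow to a high stated purity and sequenced from low input. There were 5 untreated libraries of genotype LAIR1+/+ (WT) and 5 untreated libraries of genotype LAIR1-/- (LAIRKO), which lack an inhibitory leukocyte receptor that binds collagen. The labels give no age, sex or strain of the animals, no description of the deleted allele, and no statement that each library came from its own animal, so p-values measure only the spread between these libraries.

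Ribosomes are assembled in the nucleolus. RNA polymerase I transcribes a long precursor RNA there, snoRNPs guide the methylation and pseudouridylation of its bases, and ordered sets of helicases, GTPases, scaffold proteins and nucleases fold and cut it into the RNAs of the small and the large subunit. Cells that are growing and dividing make more ribosomes than resting cells. The transcription factor MYC is known to activate many genes of this pathway.

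The libraries held 12106209 to 15356924 counts. Lair1 had 4230 to 5579 counts in each WT library and at most 10 in any LAIRKO library. So every library matched its genotype. All 13 genes of the nonclassical monocyte list were detected. Their summed level was 9391 to 12930 CPM (a gene's counts relative to the TMM-adjusted size of its library) in WT and 7818 to 10190 in LAIRKO. The log2 fold change (LAIRKO minus WT) lay below 0 in all 13, with a median of -0.26. None of the 13 passed the test (edgeR; 5 at an unadjusted p under 0.05, all lower; DESeq2 called 2 lower and limma voom 0; edgeR called 2 lower without LAIRKO replicate 3 and 1 without WT replicate 1 or 5). The cells also held transcripts of other types: 12 myeloid progenitor genes summed to 559.5 to 1445 CPM in WT and 3248 to 6950 CPM in LAIRKO, with 10 of the 12 higher. All 18 proliferation genes were higher, with sums of 359.4 to 530.4 against 777.9 to 1497 CPM. The sums of 8 resident macrophage genes were lower in LAIRKO (1521 to 2054 against 833.7 to 1070 CPM, with 6 of 7 tested genes lower). Sums overlapped between the groups for 9 neutrophil genes (387.5 to 1971 in WT, 1003 to 1609 in LAIRKO, 0 of 9 called) and 7 erythroid genes (79.0 to 1282 and 36.2 to 114.8, 4 lower). The 4 erythroid calls were 0 with limma voom and without WT replicate 2 or 3 or LAIRKO replicate 1, 4 or 5, and 1 without LAIRKO replicate 2 or 3. Sums also overlapped for 8 B lineage genes (958.8 to 1401 and 913.7 to 1391, 0 of 7 tested called), 6 dendritic cell genes (148.4 to 221.8 and 164.5 to 239.4, 1 higher and 2 lower of 5 tested) and 6 T and NK cell genes (6.43 to 21.6 and 20.9 to 47.2 CPM, the 1 tested higher). The T and NK cell call was lost without WT replicate 1 or 3 or LAIRKO replicate 5. Of the 2 lower dendritic calls, 1 was left without WT replicate 2, 4 or 5, LAIRKO replicate 1, 4 or 5, or with limma voom. No gene of these lists was at 0 in every library. In bulk RNA, fewer cells of a type and less RNA per cell cannot be told apart.

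Transcripts of the 52 genes tended to be higher in LAIRKO. The genes were chosen with earlier results of these data known, and the effect of that choice on the shares below was not tested. Of 51 tested, 20 rose and 0 fell (edgeR quasi-likelihood test, Benjamini-Hochberg adjusted p under 0.05 over 13469 genes), or 39.2%, where 5.11% of all tested genes rose and 1.68% fell. At an unadjusted p under 0.05, 32 were higher and 0 lower. DESeq2 called 24 higher and 0 lower (7.47% of all genes higher) and limma voom 20 and 0 (4.96%). With a trend on GC content and length removed edgeR called 17 (4.56%). The median log2 fold change (LAIRKO minus WT) was 0.43, against 0.00 over all tested genes, and 50 of 51 values lay above 0. Most changes were moderate: the called genes rose 1.28- to 2.58-fold, and 2 of the 20, Gnl3 and Dkc1, at least doubled. In 20 genes every LAIRKO library lay above every WT library, a separation shown by 5.61% of all tested genes, and 17 of these were also called. The reverse separation was found in none of the 51 and in 2.06% of all genes.

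**Figure D1:**
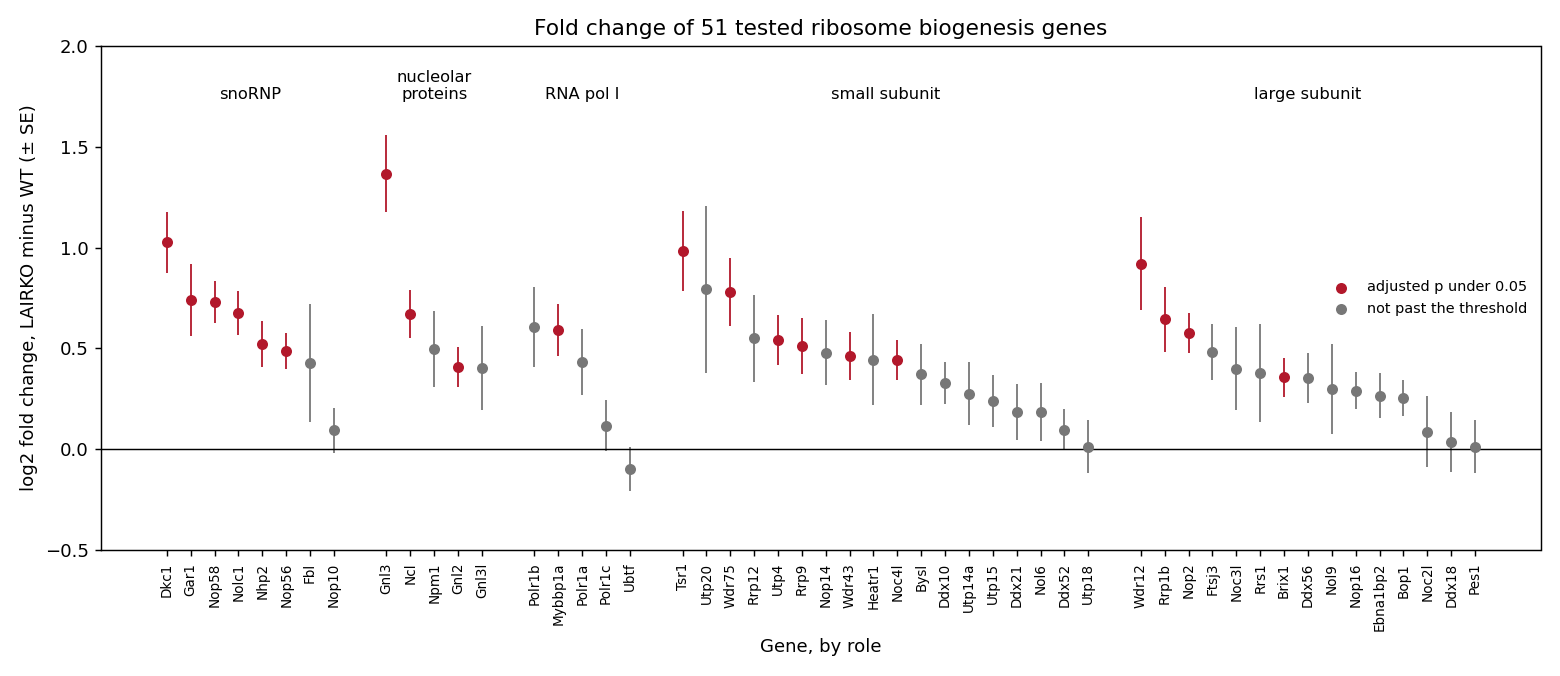
Log2 fold change of LAIRKO over WT (± SE, y axis) for the 51 tested genes, grouped by role along the x axis; red points passed an adjusted p under 0.05. All points but Ubtf lie above 0, and the highest is Gnl3 at 1.37.

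The number of genes called depended on single libraries. It was 12 without WT replicate 1 (3.53% of all genes higher), 13 without WT replicate 3 (3.33%) and 12 without LAIRKO replicate 4 (3.07%), and 14 to 20 without any other. Without LAIRKO replicates 4 and 5 together 7 were called, with a median log2 fold change of 0.285 and 1.68% of all genes called higher. Without WT replicates 1 and 4 together 8 were called, beside 1.89% of all genes, but the median log2 fold change was 0.439. Scaled by library totals, 28 were called, but so were 9.23% of all genes, and this scaling moved the median of all genes to 0.13 and the share of higher genes among all calls from 75.3% to 90.1%. Of the 20 genes, 12 were called whichever single library was left out, and Gnl3, Dkc1, Nop58, Nolc1, Ncl and Nop2 were called in all 22 alternative fits.

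**Figure D2:**
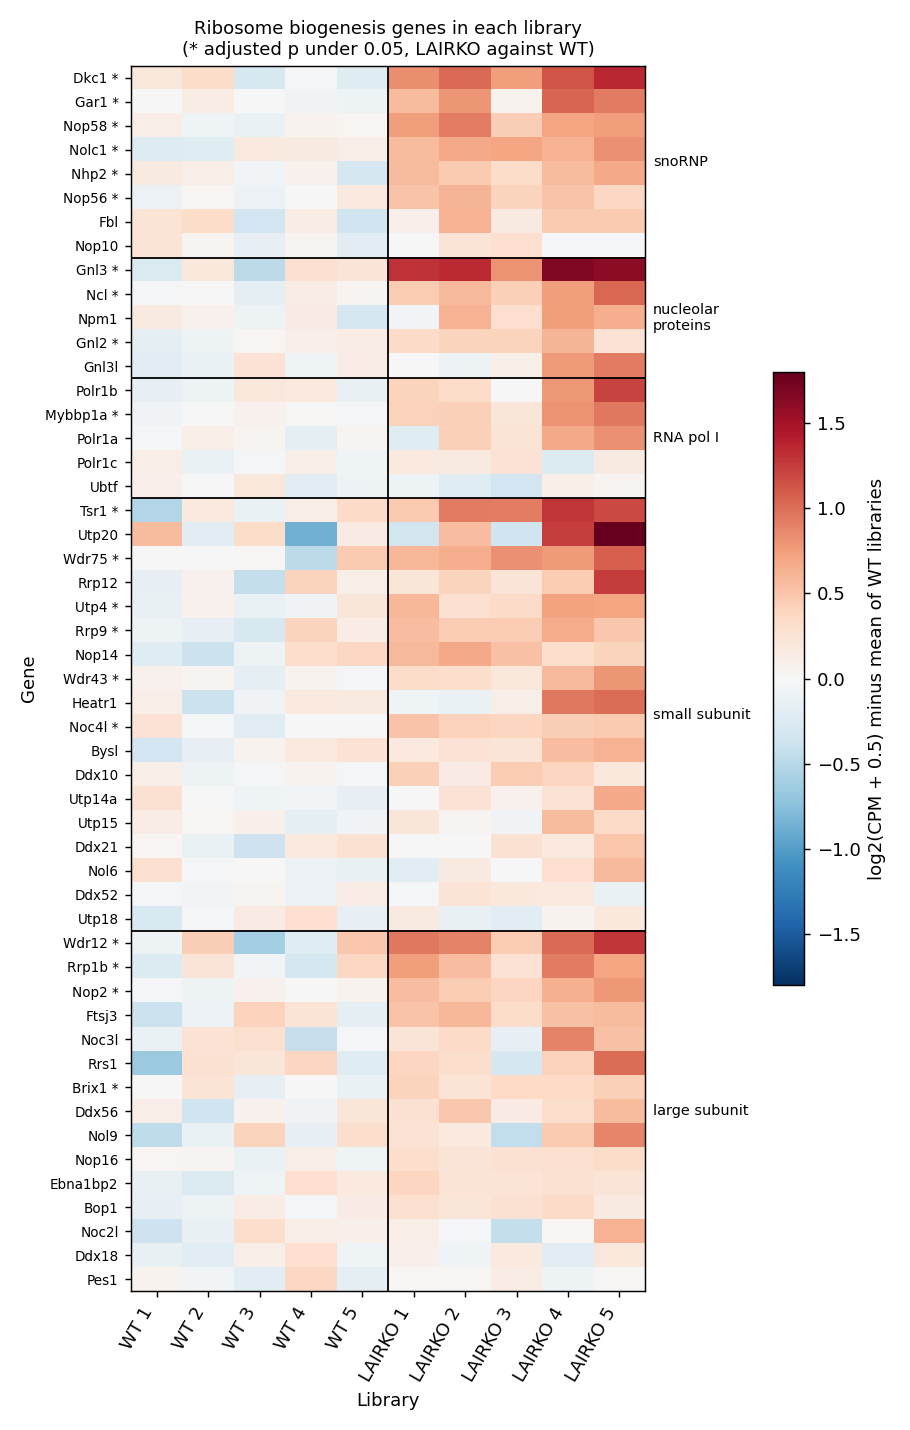
Level of each tested gene (rows, by role and fold change) in each library (columns), as log2(CPM + 0.5) minus the mean of the WT libraries, from blue (lower) to red (higher). Most rows are red across the LAIRKO libraries, and LAIRKO replicates 4 and 5 hold the highest value of 36 of the 51 genes.

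RefSeq promoter windows (GRCm38.p6, 250 bases before to 50 after the gene start) were at hand for 44 of the 52 genes; Bop1, Fbl, Gnl2, Gnl3l, Nol6, Npm1, Rrp12 and Rrs1 had none. The windows were searched for CACGTG, the canonical E-box to which MYC with its partner MAX can bind. It reads the same on both strands. The hexamer was found in 8 of the 44 genes (18.2%). These were 5 of the 19 called genes that have a window (26.3%) and 3 of the other 25 (12%). It was found in 8.09% of all 27025 genes with a window, whether or not they were tested here. Median GC content of the windows was 59.3% in the 44 genes and 61.4% in the 19 called ones, against 52.8% in all genes, and its part in these shares was not tested. The windows of the called genes that hold it, Tsr1, Nop2, Mybbp1a, Utp4 and Wdr43, are shown with the E-box in capitals. Also shown is that of Gnl3, the gene with the largest change, which holds no CACGTG. Sequences run 5′ to 3′ on the gene's strand.
Tsr1, chr11:74897830-74898129 (plus strand): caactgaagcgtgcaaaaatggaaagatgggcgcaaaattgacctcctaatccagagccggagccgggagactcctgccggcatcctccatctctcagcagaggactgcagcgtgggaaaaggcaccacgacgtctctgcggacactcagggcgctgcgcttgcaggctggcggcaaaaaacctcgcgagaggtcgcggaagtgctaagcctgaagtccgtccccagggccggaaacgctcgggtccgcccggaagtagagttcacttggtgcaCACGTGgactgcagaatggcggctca
Nop2, chr6:125131633-125131932 (plus strand): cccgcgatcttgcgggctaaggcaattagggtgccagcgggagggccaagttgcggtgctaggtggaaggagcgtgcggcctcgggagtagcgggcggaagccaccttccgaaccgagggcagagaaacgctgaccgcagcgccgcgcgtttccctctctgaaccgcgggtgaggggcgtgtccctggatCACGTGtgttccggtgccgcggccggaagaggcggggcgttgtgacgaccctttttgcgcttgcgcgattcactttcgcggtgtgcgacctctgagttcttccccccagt
Mybbp1a, chr11:72441077-72441376 (plus strand): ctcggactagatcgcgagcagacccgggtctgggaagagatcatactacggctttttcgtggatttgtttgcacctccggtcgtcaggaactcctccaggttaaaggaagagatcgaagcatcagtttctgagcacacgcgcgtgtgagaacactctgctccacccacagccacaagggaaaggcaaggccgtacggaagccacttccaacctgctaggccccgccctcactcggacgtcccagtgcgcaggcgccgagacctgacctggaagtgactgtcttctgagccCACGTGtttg
Utp4, chr8:106893390-106893689 (plus strand): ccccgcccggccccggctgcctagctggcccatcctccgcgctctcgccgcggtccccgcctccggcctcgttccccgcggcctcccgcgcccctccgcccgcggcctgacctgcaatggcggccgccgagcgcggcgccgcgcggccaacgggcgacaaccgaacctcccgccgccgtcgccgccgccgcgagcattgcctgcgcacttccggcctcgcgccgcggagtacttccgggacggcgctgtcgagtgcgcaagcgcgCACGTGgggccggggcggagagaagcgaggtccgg
Wdr43, chr17:71615965-71616264 (plus strand): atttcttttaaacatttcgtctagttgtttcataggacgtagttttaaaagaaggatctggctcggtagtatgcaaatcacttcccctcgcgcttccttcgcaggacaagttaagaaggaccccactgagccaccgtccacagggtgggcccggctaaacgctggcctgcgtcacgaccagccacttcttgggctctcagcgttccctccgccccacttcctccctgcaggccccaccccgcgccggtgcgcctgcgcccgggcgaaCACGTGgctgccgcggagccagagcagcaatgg
Gnl3, chr14:31019082-31019381 (minus strand): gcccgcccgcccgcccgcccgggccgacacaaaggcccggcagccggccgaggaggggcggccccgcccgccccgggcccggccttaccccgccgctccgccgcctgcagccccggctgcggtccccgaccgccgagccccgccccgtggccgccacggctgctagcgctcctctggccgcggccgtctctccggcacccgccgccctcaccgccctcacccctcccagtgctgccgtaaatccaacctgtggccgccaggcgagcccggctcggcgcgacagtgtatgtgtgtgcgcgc
The hexamer began 60 bases before the start in Nop2, and 24, 40, 15 and 17 bases after it in Tsr1, Mybbp1a, Utp4 and Wdr43. A match of letters is not evidence of binding, and Pes1, Utp18 and Utp20, which also hold it, were not called.

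Genes of the snoRNPs had a median log2 fold change of 0.60. They had the largest share of calls by role, 6 of 8 (75%, against 5.11% of all genes). Of these, 5 or 6 were called without any single library, and 4 without LAIRKO replicates 4 and 5 or without WT replicates 1 and 4. Dkc1 (ENSMUSG00000031403, chromosome X, 75095854 to 75109777, plus strand, as are all positions on GRCm38) encodes dyskerin, the pseudouridine synthase of box H/ACA particles and a component of telomerase. Its level was 43.7, 48.1, 30.9, 37.3 and 32.5 CPM in WT replicates 1 to 5 and at 67.9, 77.5, 64.5, 83.8 and 98.2 CPM in LAIRKO replicates 1 to 5. Every LAIRKO value exceeded every WT value (log2 fold change 1.03 ± 0.15 (SE), adjusted p = 0.00188). Without LAIRKO replicates 4 and 5 the log2 fold change was 0.86 (adjusted p = 0.017). Its partners in the particle are Nhp2, Gar1 and Nop10. Nhp2 was at 49.9, 48.4, 43.2, 47.4 and 36 CPM in WT and 66.7, 61.9, 56.3, 66.4 and 71.9 CPM in LAIRKO, without overlap (log2 fold change 0.52 ± 0.11 (SE), adjusted p = 0.0149). Gar1 was at 13, 14.4, 13.1, 12.5 and 12.2 CPM in WT and 19.6, 22.9, 13.6, 27.5 and 25.4 CPM in LAIRKO (log2 fold change 0.74 ± 0.18 (SE), adjusted p = 0.0262). Its LAIRKO replicate 3 lay within the WT range, and the call was lost in 7 of the 10 fits that left out 1 library (adjusted p from 0.00278 to 0.0763). Nop10, per length the most abundant of the 52, was at 134, 117, 103, 117 and 98.9 CPM in WT and 113, 135, 139.9, 110.1 and 110.5 CPM in LAIRKO, and these ranges overlapped (log2 fold change 0.09 ± 0.11 (SE), adjusted p = 0.681).

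The box C/D particles, which methylate ribose, share the core proteins NOP56, NOP58 and the methyltransferase fibrillarin. Nop58 (ENSMUSG00000026020, chromosome 1, 59684971 to 59719044, plus strand) was at 52.3, 45.4, 44.3, 50.3 and 49.3 CPM in WT and at 81.5, 92.1, 65.6, 79.5 and 81.6 CPM in LAIRKO. These groups were well apart, and LAIRKO replicate 2, not 4 or 5, was the highest (log2 fold change 0.73 ± 0.11 (SE), adjusted p = 0.00165; 0.72 (adjusted p = 0.0139) without LAIRKO replicates 4 and 5). Nop56 showed 107, 119, 108, 115 and 131 CPM in WT and 166, 178, 154, 166 and 149 CPM in LAIRKO, again apart and with replicate 5 the lowest of LAIRKO (log2 fold change 0.48 ± 0.09 (SE), adjusted p = 0.00627). It was called without LAIRKO replicates 4 and 5, at 0.51 (adjusted p = 0.0206), and not without WT replicates 1 and 4 (adjusted p = 0.0655). Fbl, for fibrillarin, was low, with 1.88 ± 0.525 CPM in WT and 2.54 ± 0.467 CPM in LAIRKO (SD, n = 5 each; adjusted p = 0.437), and 17 counts in its lowest library. Nolc1 (ENSMUSG00000015176, chromosome 19, 46075863 to 46085530, plus strand), a chaperone that accompanies snoRNPs to the nucleolus, was at 59.2, 59.8, 78.7, 78 and 76.1 CPM in WT and 104, 113, 114, 108 and 124 CPM in LAIRKO. The LAIRKO libraries were close together, all above WT (log2 fold change 0.68 ± 0.11 (SE), adjusted p = 0.00298; 0.65 (adjusted p = 0.0206) without LAIRKO replicates 4 and 5).

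Among nucleolar GTPases and phosphoproteins 3 of 5 tested genes rose (60%, against 5.11% of all genes), Gnl3, Ncl and Gnl2. Without LAIRKO replicates 4 and 5 the first 2 of these were called. Gnl3 (ENSMUSG00000042354, chromosome 14, 31012433 to 31019152, minus strand) encodes nucleostemin, a GTP-binding nucleolar protein first described in stem cells and tumour cells. It was at 18.2, 25.2, 15.5, 26.7 and 25.6 CPM in WT and 54.3, 56.2, 38.7, 69.9 and 67.7 CPM in LAIRKO. All LAIRKO libraries were above all WT libraries, replicate 3 least so (log2 fold change 1.37 ± 0.19 (SE), adjusted p = 0.00145). Without LAIRKO replicates 4 and 5 the log2 fold change was 1.16 (adjusted p = 0.0139). Ncl (ENSMUSG00000026234, chromosome 1, 86344719 to 86359400, minus strand) encodes nucleolin, an abundant RNA-binding protein of the nucleolus that acts on polymerase I transcription and early processing. Its values were 245, 250.5, 221, 274 and 258 CPM in WT and 343, 373, 335, 422 and 512 CPM in LAIRKO. Both groups were apart, with LAIRKO replicates 4 and 5 the highest (log2 fold change 0.67 ± 0.12 (SE), adjusted p = 0.00537; 0.49 (adjusted p = 0.0186) without these). Gnl2, a GTPase whose yeast counterpart licenses precursors of the large subunit for export, was at 61, 64.4, 69.9, 73 and 75.5 CPM in WT and 87, 90.3, 90.8, 105 and 82 CPM in LAIRKO. These values did not overlap (log2 fold change 0.41 ± 0.10 (SE), adjusted p = 0.0276), yet the call was lost in 5 of the 10 fits without 1 library (adjusted p from 0.0316 to 0.0786).

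The remaining genes of this group were not called. Npm1, for the nucleolar chaperone nucleophosmin, was at 8.4 ± 1.15 CPM in WT and 11.9 ± 2.59 CPM in LAIRKO (SD, n = 5 each; log2 fold change 0.50 ± 0.19 (SE), adjusted p = 0.142). Of the 52 genes it had the most near-identical copies in the annotation. These are 8 genes with at least 300 bases at 90% identity or more, so its level is uncertain. Some called genes had such copies too: 4 for Wdr12, 2 each for Dkc1 and Nop56, and 1 each for Nhp2, Gar1, Ncl, Mybbp1a and Tsr1. How reads that align to a copy were counted is not given, so this limit holds for them as well. Gnl3l, a relative of Gnl3, was at 21.2, 22.2, 29.2, 23 and 26.6 CPM in WT and 24.1, 22.7, 26.1, 41.8 and 47.1 CPM in LAIRKO. Replicates 4 and 5 stood above all others and replicates 1 to 3 within the WT range (log2 fold change 0.40 ± 0.21 (SE), adjusted p = 0.285; -0.01 (adjusted p = 0.98) without LAIRKO replicates 4 and 5). Npm3 had 0 to 7 counts in WT and 1 to 18 in LAIRKO and was not tested.

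**Figure D3:**
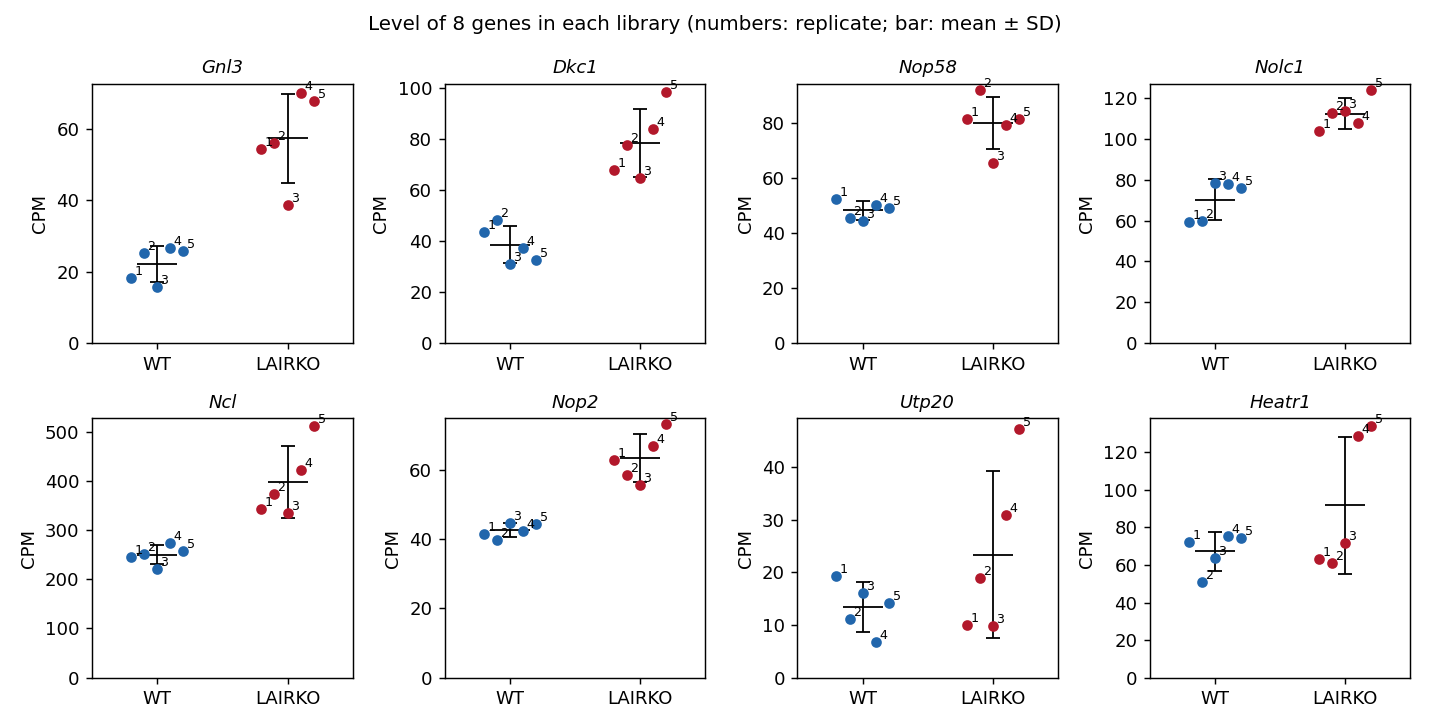
CPM of 8 genes in each library (points, numbered by replicate) with the mean ± SD of each group, WT in blue and LAIRKO in red; y axes start at 0. Gnl3, Dkc1, Nop58, Nolc1, Ncl and Nop2 show no overlap between the groups, whereas in Utp20 and Heatr1 only LAIRKO replicates 4 and 5 exceed every WT library.

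Of 5 RNA polymerase I factors, 1 rose (20%, against 5.11% of all genes), and 2 were called without LAIRKO replicate 1 or 3. The count was 0 without both LAIRKO replicates 4 and 5, and 0 without both WT replicates 1 and 4. Mybbp1a, a nucleolar protein associated with polymerase I transcription, was at 100.2, 105, 111, 107 and 102 CPM in WT and 139.7, 142, 122, 185 and 203 CPM in LAIRKO. WT varied little (coefficient of variation 3.79%) and LAIRKO more (21.4%), without overlap (log2 fold change 0.59 ± 0.13 (SE), adjusted p = 0.0161; 0.36 (adjusted p = 0.063) without LAIRKO replicates 4 and 5). Polr1a, the largest catalytic subunit, was at 53.4, 59.4, 56.3, 48.3 and 56.5 CPM in WT and 47, 73.4, 64.6, 88 and 96.6 CPM in LAIRKO. The lowest value of all 10 was LAIRKO replicate 1 and the highest were replicates 4 and 5 (log2 fold change 0.43 ± 0.16 (SE), adjusted p = 0.144). Without LAIRKO replicate 1 it was called (adjusted p = 0.0282), and without LAIRKO replicates 4 and 5 its log2 fold change was 0.17 (adjusted p = 0.591). Polr1b, the second catalytic subunit, was at 24.6, 25.7, 31.6, 30.9 and 25 CPM in WT and 36.3, 34.6, 27.6, 47.5 and 64 CPM in LAIRKO (log2 fold change 0.61 ± 0.20 (SE), adjusted p = 0.0921). It was called without LAIRKO replicate 3 (adjusted p = 0.0286), the one LAIRKO library within the WT range. DESeq2 also called Polr1b (adjusted p = 0.0474). Without LAIRKO replicates 4 and 5 its log2 fold change was 0.25 (edgeR adjusted p = 0.426). Polr1c, a subunit shared with polymerase III, was at 24.2 ± 1.92 CPM in WT and 26.3 ± 3.39 CPM in LAIRKO (SD, n = 5 each; adjusted p = 0.65). Ubtf, the factor that marks and opens ribosomal DNA, was at 152, 143, 166, 125 and 135 CPM in WT and 134, 124, 113, 155 and 148 CPM in LAIRKO, with overlap, and was the only one of the 51 with a value below 0 (log2 fold change -0.10 ± 0.11 (SE), adjusted p = 0.666; 0.04 with library totals).

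Factors of the small subunit act in the processome that forms on the nascent precursor. Of 18 tested, 6 rose (33.3%, against 5.11% of all genes), with a median log2 fold change of 0.44. The count was 3 without WT replicate 1, WT replicate 3 or LAIRKO replicate 4 (16.7%, against 3.07% to 3.53% of all genes). It was 0 without both LAIRKO replicates 4 and 5. Tsr1, a late assembly factor that in yeast blocks premature translation, was at 8.2, 13.7, 11.1, 13.2 and 15.5 CPM in WT and 16.9, 23.6, 23.2, 30.3 and 28 CPM in LAIRKO, without overlap (log2 fold change 0.98 ± 0.20 (SE), adjusted p = 0.00994). Srr, on the opposite strand, covers 32.3% of the exon length of Tsr1 and had a mean of 101.6 counts against 254.2 for Tsr1. Without a known strand setting reads there cannot be assigned (Srr log2 fold change 0.54, adjusted p = 0.108). Wdr75, Utp4, Wdr43, Utp15 and Heatr1 belong to the subcomplex that first joins the precursor and is needed for its transcription. Of these, Utp15 (log2 fold change 0.24, adjusted p = 0.305) and Heatr1 (0.44, adjusted p = 0.277) were not called. Wdr75 was at 18.2, 18.1, 18.4, 13 and 25.3 CPM in WT and 27.9, 28.9, 32.6, 31.3 and 39.1 CPM in LAIRKO (log2 fold change 0.78 ± 0.17 (SE), adjusted p = 0.0151). Utp4 was at 32.2, 37.4, 32.5, 33.9 and 41.1 CPM in WT and 53.4, 43.3, 44.8, 58.3 and 57.8 CPM in LAIRKO (log2 fold change 0.54 ± 0.12 (SE), adjusted p = 0.019). The WT and LAIRKO ranges of Utp4 lay close to each other. Wdr43 had 72.6, 71.5, 61.7, 72.4 and 68 CPM in WT and 87, 86.6, 79.6, 104 and 120.1 CPM in LAIRKO (log2 fold change 0.46 ± 0.12 (SE), adjusted p = 0.0332). In Wdr75, Utp4 and Wdr43 each LAIRKO library was above each WT library. Wdr75 was called whichever library was left out, Utp4 lost its call in 3 of 10 such fits (adjusted p from 0.0135 to 0.0568) and Wdr43 in 7 (adjusted p from 0.0162 to 0.0885).

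Noc4l, the partner of NOP14 in the yeast processome, was at 58.9, 48.1, 42.8, 48.9 and 49.2 CPM in WT and 70.4, 65.8, 64.8, 67.5 and 68.4 CPM in LAIRKO. The LAIRKO libraries lay close together, all of them above WT (log2 fold change 0.44 ± 0.10 (SE), adjusted p = 0.0178; 0.43 (adjusted p = 0.0745) without LAIRKO replicates 4 and 5). Rrp9, which binds the snoRNA that organises the processome, was at 21.8, 21, 19, 31 and 25.7 CPM in WT and 34.5, 32.4, 32.2, 37.4 and 32.8 CPM in LAIRKO. The groups were separate but near each other (log2 fold change 0.51 ± 0.14 (SE), adjusted p = 0.0464). The call was lost in 9 of the 10 fits without 1 library (adjusted p from 0.0176 to 0.117). The other 12 genes had log2 fold changes from 0.01 (Utp18) to 0.79 (Utp20). In Ddx10, an RNA helicase, all LAIRKO libraries also exceeded all WT libraries (36.1 ± 2.05 CPM in WT and 45.3 ± 4.39 CPM in LAIRKO, edgeR adjusted p = 0.0816). DESeq2 called Ddx10 (adjusted p = 0.0253). Nop14 was at 24.6 ± 5.86 CPM in WT and 34.2 ± 3.49 CPM in LAIRKO (adjusted p = 0.0995). Among other scaffold and assembly genes, Utp14a had a log2 fold change of 0.28, Utp15 one of 0.24, Nol6 one of 0.18 and Bysl, a factor of late small-subunit precursors, one of 0.37. The helicase genes Ddx21 and Ddx52 were at 0.18 and 0.10 (log2 fold changes), with WT means of 52.9 and 69.3 CPM. The adjusted p-values of these 6 genes ran from 0.168 (Bysl) to 0.623 (Ddx52).

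Utp20 and Heatr1, large scaffold proteins of the processome, had the highest coefficients of variation among LAIRKO libraries of the 51 genes. Utp20 was at 19.2, 11.1, 16.1, 6.76 and 14.2 CPM in WT and 10.03, 19, 9.81, 30.8 and 47.2 CPM in LAIRKO (log2 fold change 0.79 ± 0.41 (SE), adjusted p = 0.29). Heatr1 was at 72.4, 50.8, 63.7, 75.5 and 74.5 CPM in WT and 63.2, 61.3, 71.8, 129 and 134 CPM in LAIRKO (log2 fold change 0.44 ± 0.23 (SE), adjusted p = 0.277). In both, LAIRKO replicates 4 and 5 stood above every other library and replicates 1 to 3 within the WT range. Without replicates 4 and 5 the log2 fold changes were -0.06 (adjusted p = 0.953) and -0.04 (adjusted p = 0.914). Rrp12, an export factor, was at 21.7, 25.4, 17.8, 31.8 and 25.9 CPM in WT and 28.1, 31.9, 28.3, 33.3 and 58.2 CPM in LAIRKO, with replicate 5 apart (log2 fold change 0.55 ± 0.22 (SE), adjusted p = 0.156). Over the 51 genes the coefficient of variation had a median of 13.8% in WT and 15.1% in LAIRKO, and exceeded 30% in 2 and 7 genes.

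Among 15 factors of the large subunit 4 rose (26.7%, against 5.11% of all genes), with a median log2 fold change of 0.35. Of these 4, Nop2 alone was called without WT replicate 1, 3 or 4 or LAIRKO replicate 1, 2, 4 or 5. In these fits 6.67% of the 15 were called (13.3% without WT replicate 3), against 3.07% to 4.41% of all genes. Nop2 alone was also called without both LAIRKO replicates 4 and 5 (6.67%, against 1.68%). Nop2 (ENSMUSG00000038279, chromosome 6, 125131909 to 125144753, plus strand), a methyltransferase of the large subunit's rRNA known as a proliferation antigen, was at 41.5, 39.8, 44.8, 42.2 and 44.2 CPM in WT and 63, 58.6, 55.6, 66.7 and 73.2 CPM in LAIRKO. The WT libraries lay close together and all LAIRKO libraries above them (log2 fold change 0.58 ± 0.10 (SE), adjusted p = 0.00486; 0.47 (adjusted p = 0.0374) without LAIRKO replicates 4 and 5). Rrp1b, a nucleolar protein of large-subunit processing, was at 26.4, 37.2, 30.4, 25.2 and 41.1 CPM in WT and 53.5, 46.6, 38, 60.4 and 52 CPM in LAIRKO. LAIRKO replicate 3 fell within the WT range (log2 fold change 0.64 ± 0.16 (SE), adjusted p = 0.032), and 7 of 10 fits without 1 library lost the call (adjusted p from 0.0137 to 0.0906). Brix1, an early assembly factor of the large subunit, was at 66.3, 78.3, 59.9, 66.5 and 61.1 CPM in WT and 87.1, 78.9, 84.6, 85 and 89.3 CPM in LAIRKO. The groups were just separate (log2 fold change 0.36 ± 0.10 (SE), adjusted p = 0.042), and 9 of 10 such fits lost the call (adjusted p from 0.0246 to 0.105).

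The PeBoW complex, which consists of PES1, BOP1 and WDR12 and is required for processing of the large-subunit RNA, had 1 of its 3 genes called. Wdr12 was at 8.62, 12.6, 5.8, 7.8 and 13 CPM in WT and 18.1, 17.5, 12.7, 19.2 and 23 CPM in LAIRKO, where replicate 3 lay within the WT range (log2 fold change 0.92 ± 0.23 (SE), adjusted p = 0.0315; the call was lost in 7 of 10 fits without 1 library, adjusted p from 0.0167 to 0.0806). Bop1, the most abundant of the large-subunit genes per length, was at 89.7, 93.4, 109, 97.5 and 110.0 CPM in WT and 121, 116, 121, 126 and 112 CPM in LAIRKO. Its groups did not overlap, yet it was not called (log2 fold change 0.25 ± 0.09 (SE), adjusted p = 0.113). Pes1 was at 28.9, 26.5, 23.7, 35.9 and 24.2 CPM in WT and 28.1, 28.2, 30.4, 25.9 and 28 CPM in LAIRKO, with overlap (log2 fold change 0.01 ± 0.13 (SE), adjusted p = 0.975, and -0.04 with the GC and length trend removed). Whether the 3 genes differed from each other in their change was not tested. Nop16 was the other large-subunit gene with separate groups and no edgeR call (43.5 ± 2.84 CPM in WT and 53.2 ± 1.36 CPM in LAIRKO, adjusted p = 0.0748). DESeq2 called Nop16 (adjusted p = 0.0133). Ftsj3, an rRNA methyltransferase, was at 74.4 ± 17 CPM in WT and 104 ± 7.18 CPM in LAIRKO (adjusted p = 0.0596) and was called by limma voom (adjusted p = 0.0453) and DESeq2 (0.0264), and by edgeR without WT replicate 3 (0.0218) or LAIRKO replicate 3 (0.0487). Further genes of the large subunit had log2 fold changes of 0.40 (Noc3l), 0.38 (Rrs1), 0.35 (Ddx56), 0.30 (Nol9, a kinase that acts in precursor cleavage) and 0.27 (Ebna1bp2), with adjusted p-values from 0.112 (Ddx56) to 0.478 (Nol9). The helicase gene Ddx18 (log2 fold change 0.04 ± 0.15 (SE), adjusted p = 0.926) and Noc2l (log2 fold change 0.09 ± 0.18 (SE), adjusted p = 0.83) changed sign when LAIRKO replicate 5 was left out, to -0.01 and -0.09. Ddx18 also changed sign without WT replicate 1 (-0.0014), WT replicate 2 (-0.013) or LAIRKO replicate 3 (-0.00077).

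Levels between genes were compared per kilobase of the principal coding transcript. In WT, Nop10 was highest at 103 ± 12.7 CPM per kb (SD, n = 5), then Nop56 at 61.9 ± 5.17, Nhp2 at 43.2 ± 5.36, Bop1 at 40.1 ± 3.7 and Noc2l at 40.1 ± 7.18 CPM per kb. The last 3 did not differ beyond their spread. The lowest tested were Utp20 at 1.53 ± 0.542 and Fbl at 1.57 ± 0.439 CPM per kb. Ncl, at 30.4 ± 2.4 CPM per kb, is divided by an annotated transcript of 8202 bases, and a shorter transcript would raise it.

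Outside the list, few genes of the pathway were called. Of 126 other tested ribosome biogenesis factors 12 were higher (9.52%, against 5.11% of all genes) and 0 lower (41 higher and 0 lower at an unadjusted p under 0.05; DESeq2 21 and 0, limma voom 11 and 0). They had a median log2 fold change of 0.20 and 102 values above 0. By stage, 4 of 41 small-subunit factors rose (9.76%), namely Tbl3, Rcl1, Nat10 and Nob1. Tbl3 is a processome scaffold (log2 fold change 0.73 ± 0.11 (SE), adjusted p = 0.00165) and Rcl1 a factor of early cleavage (log2 fold change 0.70 ± 0.12 (SE), adjusted p = 0.00362). Nat10 encodes an rRNA acetyltransferase (log2 fold change 0.84 ± 0.21 (SE), adjusted p = 0.0322) and Nob1 the nuclease of the last cut of the small subunit's RNA (log2 fold change 0.45 ± 0.12 (SE), adjusted p = 0.0437). Of 43 large-subunit factors 7 rose (16.3%), with the smallest p for Rsl1d1 (108 ± 16.2 CPM in WT and 163 ± 14 CPM in LAIRKO; log2 fold change 0.60 ± 0.11 (SE), adjusted p = 0.00714). After it in order of p came Ppan (log2 fold change 0.93), Lyar (0.51) and Wdr18 (0.42). The count of large-subunit factors was 1 without WT replicate 1 (2.33%, against 3.53% of all genes). It was 2 without LAIRKO replicate 4 or 5 (4.65%, against 3.07% and 3.24%). Without WT replicate 2, 3 or 5 or LAIRKO replicate 1 it was 3 or 4 (6.98% or 9.3%, against 3.33% to 4.48%). Without both LAIRKO replicates 4 and 5 it was 0. The count of small-subunit factors was 2 without WT replicate 1 or 3 or LAIRKO replicate 1, 4 or 5 (4.88%, against 3.07% to 4.41%). It was also 2 without both LAIRKO replicates 4 and 5 (4.88%, against 1.68%). Of 10 snoRNP assembly genes 1 rose, the AAA-type ATPase gene Ruvbl2 (56.7 ± 7.18 CPM in WT and 89.6 ± 9.95 CPM in LAIRKO; log2 fold change 0.66 ± 0.11 (SE), adjusted p = 0.00449). The share of the 126 depended on single libraries. It was 3.17% without WT replicate 1, where 3.53% of all genes were higher. It was 3.97% without LAIRKO replicate 4 or 5, against 3.07% and 3.24% of all genes, and 5.56% without WT replicate 2, WT replicate 3 or LAIRKO replicate 1, against 3.79%, 3.33% and 4.41%. Without both LAIRKO replicates 4 and 5 it was 3.15%, against 1.68%. Without WT replicate 1 or LAIRKO replicate 4 or 5 the share was near that of all genes.

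None of the 17 other polymerase I genes passed with edgeR (2 higher at an unadjusted p under 0.05; DESeq2 1 higher, limma voom 0; 1 called without WT replicate 3). The smallest p-values belonged to the subunit gene Polr1e (log2 fold change 0.56 ± 0.18 (SE), adjusted p = 0.0862) and the shared subunit gene Polr2h (log2 fold change 0.44 ± 0.20 (SE), adjusted p = 0.225). The same held for 15 genes of the RNA exosome and related trimming nucleases, of which 0 passed (6 higher at an unadjusted p under 0.05; DESeq2 1 higher, limma voom 0; 1 called without LAIRKO replicates 4 and 5). There Exosc1 (log2 fold change 0.32 ± 0.10 (SE), adjusted p = 0.0759) and Exosc2 (log2 fold change 0.42 ± 0.14 (SE), adjusted p = 0.101) had the smallest p-values. Host genes of snoRNAs, whose introns carry the guide RNAs, rose in 4 of 13 cases (30.8%, against 5.11% of all genes). These were Snhg5 (log2 fold change 0.88 ± 0.18 (SE), adjusted p = 0.00994), Snhg6 (0.80), Gas5 (0.57) and Snhg17 (0.75). Of the 13, 1 or 2 were called without LAIRKO replicate 2, 4 or 5 or any single WT library. That is 7.69% or 15.4%, against 3.07% to 4.48% of all genes. Without both LAIRKO replicates 4 and 5 the count was 0. Of 75 mitochondrial ribosome genes 2 rose, Mrpl12 (log2 fold change 0.53 ± 0.11 (SE), adjusted p = 0.0122) and Mrps27 (0.56), and 1 fell, Mrpl52 (-0.57). The share higher was 2.67%, against 5.11% of all genes, and the median log2 fold change of the 75 was 0.07. Without LAIRKO replicates 4 and 5 none of the 75 was called, and single libraries left out gave 1 to 3 higher and 0 or 1 lower.

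**Figure D4:**
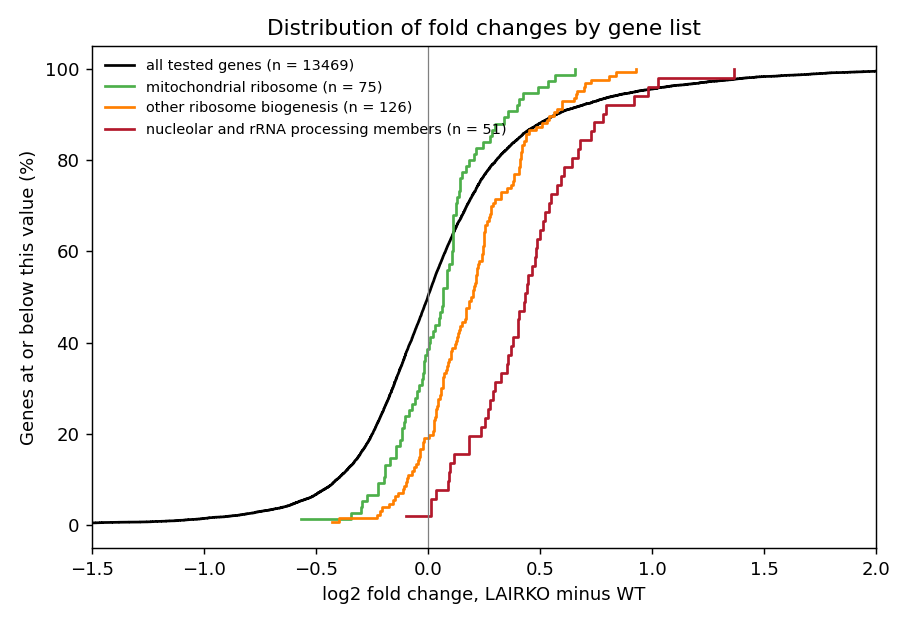
Cumulative share of genes (y axis, %) at or below each log2 fold change (x axis, LAIRKO minus WT) for all 13469 tested genes, 75 mitochondrial ribosome genes, 126 other ribosome biogenesis factors and the 51 tested genes of the list. The medians are 0.00, 0.07, 0.20 and 0.43 in that order.

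Myc was higher with these genes. Its level was 18.2, 46.6, 18.4, 43.4 and 40.2 CPM across WT and 121, 130.5, 77.1, 178 and 190.0 CPM across LAIRKO, without overlap (log2 fold change 2.06 ± 0.31 (SE), adjusted p = 0.00192). Library by library, the median of the 51 genes lay -0.04 to 0.06 (log2) from the WT mean in WT and 0.33, 0.34, 0.27, 0.56 and 0.63 above it in LAIRKO replicates 1 to 5. The median of all genes stayed within 0.03. The myeloid progenitor list summed to 3772, 4043, 3248, 5542 and 6950 CPM in the same libraries and the proliferation list to 995, 1108, 778, 1467 and 1497 CPM (at most 1445 and 530.4 CPM in WT). In all 4 measures LAIRKO replicate 3 was the lowest and replicate 5 the highest of LAIRKO. In WT the measures did not share an order: replicate 2 was the highest in Myc, the progenitor sum and the proliferation sum, while its median of the 51 genes was -0.03 and replicate 4 had the highest, 0.06. Of the genes themselves, Mpo, the myeloperoxidase of granulocyte and monocyte precursors, was at 518 ± 233 CPM in WT and 3401 ± 1142 CPM in LAIRKO (SD, n = 5 each) and the proliferation marker Mki67 was at 39.5 ± 6.63 CPM in WT and 100.4 ± 20.00 CPM in LAIRKO. The part of progenitor or dividing cells in the higher ribosome biogenesis transcripts was not tested.

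**Figure D5:**
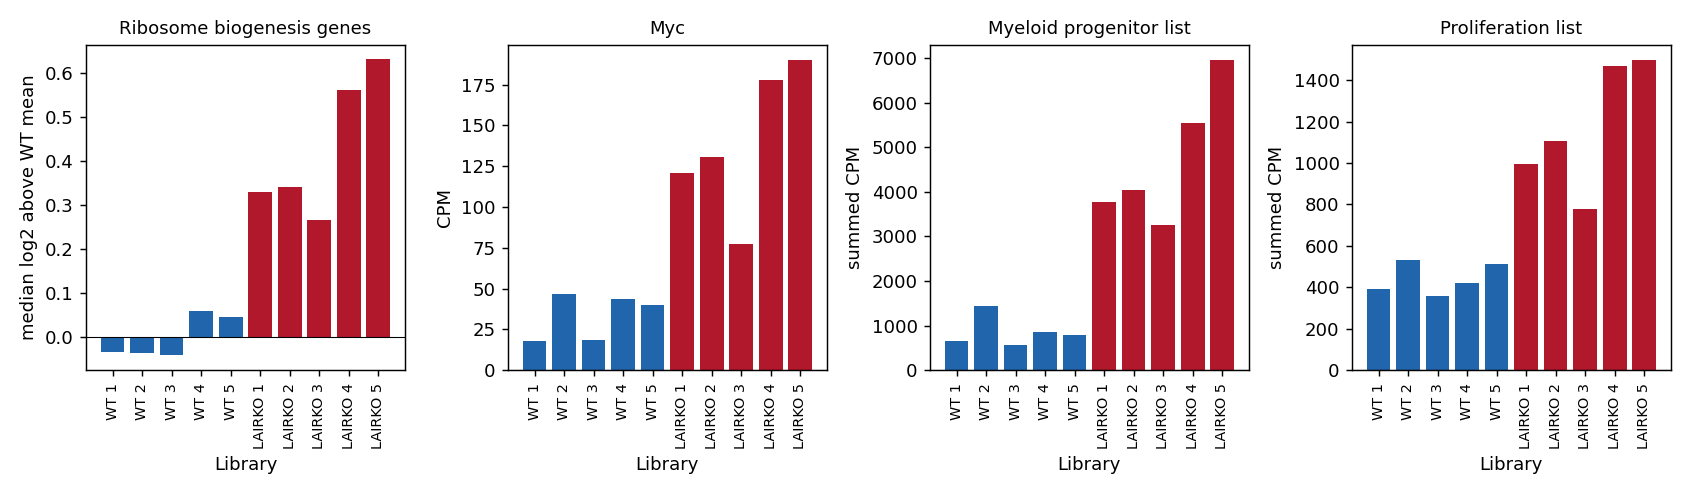
One bar per library (WT blue, LAIRKO red): the median log2 level of the 51 ribosome biogenesis genes above their WT mean, the CPM of Myc, and the summed CPM of the myeloid progenitor and proliferation lists. The LAIRKO libraries keep 1 order in the 4 panels, from replicate 3 to replicate 5, and the WT libraries do not: WT replicate 2 is the highest of WT in all panels but that of the 51 genes.

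Exons of 19 of the 51 tested genes, 11 of them called, overlap a gene on the opposite strand. The overlap covered at most 9.37% of the exon length (Bysl with Ccnd3) except in Tsr1 (32.3%), Noc2l (20.9%) and Utp14a (11.5%). Exons of 4 of the 52 genes, Nop58, Nop56, Ncl and Gnl3, contain annotated snoRNAs, which had on average 0 to 18.2 counts each, against 554 to 4464 counts for the host genes.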

How the data were processed

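Gene counts of 10 libraries, 5 WT and 5 LAIRKO, were analysed as the authors deposited them: a matrix of raw counts per Ensembl gene, with GSNAP and the build GRCm38.p5 named, without their roles, per the submitters' processing notes. No counting tool, strand setting or rule for multiply aligned reads is given in the sources used here. Symbols and positions came from GENCODE M21, which matched 52489 of 52636 identifiers.

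Genes were kept with filterByExpr (minimum count 10, minimum total 15), scaled by TMM and tested with edgeR 4.0.16 (quasi-likelihood) in R 4.3.3, with p-values adjusted by Benjamini-Hochberg over all 13469 tested genes and a threshold of 0.05. CPM used the TMM library sizes. Total counts of 12106209 to 15356924 per library set the counting precision. Alternatives were other scalings and filters, DESeq2 1.42.0, limma 3.58.1 (voom, with and without quality weights), a replicate block, a correction for GC content and length, and leaving out libraries. The edgeR test was tested on simulated data. Near-identical copies were searched with blastn 2.17.0.

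The 52 genes and the other lists were chosen with earlier results of these data known. Values are given for each library for called genes and for the most abundant gene of each role per length. From other lists up to 4 called genes, or else the 2 with the smallest p, are named; further genes named with values (Gnl3l, Utp20, Heatr1, Rrp12, Polr1a, Polr1b, Pes1, Srr) were chosen after their values were seen. Libraries with the same replicate number did not deviate together, with correlations of -0.10 to 0.057, so the comparison was unpaired.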

Additional observations from a re-analysis of the deposited data

Results flagged for a closer look

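In 3 of the 102 combinations of a tested gene and a group of 5 libraries, 1 library lay so far from the others that its gap exceeded 0.71 of the group's range; chance alone flags about 1 in 20 such groups. Polr1c, a subunit of RNA polymerases I and III, was at 20.4 CPM in LAIRKO replicate 4, below the 27.2 to 29.2 CPM of the other LAIRKO libraries. Nol6, a factor of the small-subunit processome, was at 71.6 CPM in WT replicate 1, above the 53.4 to 58.4 CPM of the other WT libraries. Rrp12, an export factor, was at 58.2 CPM in LAIRKO replicate 5, above the 28.1 to 33.3 CPM of the other LAIRKO libraries. None of these 3 genes passed the test between the groups.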

How the results depend on the processing

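Of 1122 values of the 51 genes over 22 alternatives, 979 kept their direction and side of the threshold, 98 lost the call, 18 gained it and 27 changed sign; the cause was not tested. With 1 library left out, 12 to 20 of the 51 genes, 7 to 22 other pathway genes and 422 to 789 of all genes were called higher, and 0 to 1 other pathway gene and 113 to 381 of all genes lower. Without both LAIRKO replicates 4 and 5 the counts were 7, 4 and 236 higher and 0 other and 140 of all genes lower. Without both WT replicates 1 and 4 they were 8, 6 and 266 higher and 0 and 72 lower. With the replicate number as a block, 11 of the 51 genes (3.55% of all genes) and 8 other pathway genes were higher, and 0 other and 122 of all genes lower; the correlations of same-numbered libraries (-0.10 to 0.057) do not show that the numbers pair them. Library totals gave 46 other pathway and 1243 of all genes higher, and 0 and 136 lower. DESeq2 gave 29 other pathway genes higher and 510 of all genes lower. The 1 other pathway gene called lower, Mrpl52, was also lost with no filter and with voom quality weights, each at 0.

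All sign changes were in genes that were not called. Without LAIRKO replicates 4 and 5 the log2 fold changes were -0.011 (Gnl3l), -0.061 (Utp18), -0.059 (Utp20), -0.044 (Heatr1), -0.019 (Nol6), -0.0027 (Nol9) and -0.12 (Noc2l). Ubtf was at 0.039 with library totals. Upper-quartile scaling gave -0.0023 for Utp18 and -0.0013 for Pes1, and removal of the GC and length trend -0.070 (Utp18), -0.042 (Pes1) and -0.011 (Ddx18). With 1 library left out, Utp18 ranged from -0.052 to 0.094, Pes1 ranged from -0.041 to 0.12, Ddx18 ranged from -0.013 to 0.12 and Noc2l ranged from -0.086 to 0.195. Genes with few counts, such as Fbl and Npm3, are measured with less precision, and why their counts were low was not tested.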
